A study of Mus musculus with 4 samples.

Results

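The difference between embryos with neural tube defects (NTD) and control embryos was estimated here across brain and spine at once, with the tissue as a block. The genes described are protein-coding and average 1 FPKM or more over the 4 libraries. They are 11199 of the 17616 protein-coding genes and of the 28765 genes in the deposited table. FPKM is a read density per gene length and library total. For each gene the log2 ratio of (FPKM + 1), NTD against control, was taken in brain and in spine. Their mean is the estimate. The distance of each tissue's ratio from that mean, called the tissue spread, is the only measure of spread printed with it. Values are printed as mean ± tissue spread over 2 tissues. The labels do not say whether the 2 tissues of a condition came from the same embryos, so they may not be independent replicates. At the edge of the filter, Nxph3 lay just inside at a mean of 1.0004 FPKM and Fam221a just outside at 0.9994 FPKM.

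RNA was sequenced from embryos of CD-1 mice at embryonic day 9.5 (E9.5), with 1 library for each of the 4 combinations of tissue and condition. NTD embryos, labelled as folate deficient with neural tube defects, came from male and female mice kept for more than 8 weeks on a low-folate diet, and the dams were injected intraperitoneally with methotrexate (MTX) at 1.5 mg/kg on E7.5. The controls are labelled only as controls: the labels give one protocol text for all samples and do not say whether control dams received the diet, an injection or neither. Embryos were chosen for NTD by inspection under a microscope, and the kind of defect, the number of embryos in a library, their litters and the line along which brain and spine were cut are not stated in the labels. The p-values below rest on how far the brain and spine ratios differ in these 4 libraries, pooled over genes. They therefore do not measure variation between embryos or litters. Anything that both NTD libraries share and both control libraries lack, a preparation batch included, cannot be told apart from the condition.

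The neural tube forms when the neural plate folds and its edges meet and fuse, and failure of this step leaves the brain or the spinal cord open. Folate carries single carbon units for the synthesis of thymidylate and purines and for methylation, and MTX is a folate antagonist. At the stage sampled, dividing progenitors line the tube and the earliest neurons have left the cycle at its outer edge.

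Library totals recovered from the FPKM values lay between 16272101 and 16911677 reads. The summed FPKM of 4 brain markers (Otx2, En2, Six3, Lhx2) was 65.1 in control and 59.2 in NTD brain and 9.04 and 4.08 in control and NTD spine. For 5 spine markers (Hoxb9, Hoxb8, Hoxa9, Hoxc9, Hoxc8) the sums were 0.123 and 7.37 in control and NTD brain and 95.9 and 105.3 in control and NTD spine, with Hoxb8 and Hoxc9 at 0 in control brain. The labels of tissue thus matched the markers, but the spine libraries carried some brain marker RNA and the NTD brain library some spine marker RNA. The female transcript Xist (14.1 to 18.3 FPKM) and the Y-linked Ddx3y (3.42 to 5.61 FPKM) were both present in every library.

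In the NTD libraries 8 of 24 immediate early genes and 4 of 17 chaperones of the endoplasmic reticulum rose, while 16 of 28 early neuron genes and 6 of 9 proneural factors fell. The lists and their members were chosen with earlier results of these data known. Their counts are therefore descriptions and no independent evidence. The test was limma with moderated standard errors, Benjamini-Hochberg adjustment over all 11199 genes and a threshold of 0.05, and a gene is said to rise or fall where it passed. By this test 105 genes rose (0.938% of those tested) and 347 fell (3.1%). None of them had opposite directions in the tissues. The fit counts a difference between the tissues as spread, so a gene of opposite directions could hardly pass. The changes were mostly small: the median size of the mean log2 ratio was 0.36 among genes that rose and 0.43 among those that fell. With no test, 8 genes were at least 1.5-fold higher in both tissues (0.0714%) and 48 at least 1.5-fold lower in both (0.429%), and all of these were among the genes called. By direction alone 3009 genes were higher in both tissues (26.9%), 4695 lower in both (41.9%) and 3488 had opposite signs. The median of all genes was -0.04.

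These calls rest on 1 residual degree of freedom per gene, so the number called depends on how the spread is pooled over genes. When the pooled spread was not allowed to follow expression level, 5 genes rose (Fosb, Fos, Egr1, Rpl35a and Ccn1) and 6 fell (Atoh1, Spaca6, Ckb, Hist1h2bm, Col1a1 and Nppc). The immediate early list then held 4 calls, the proneural list 1, and the early neuron and chaperone lists 0. Over all gene types limma called 10 genes higher and 9 lower, with 2 calls in the immediate early list and 0 in the early neuron, proneural and chaperone lists. With no filter on low genes limma called 0, with 956 higher and 2052 lower at an unadjusted p under 0.05. With no tissue block it also called 0, with 352 and 737 by the unadjusted p, against 895 and 1999 in the fit used here. The share of calls that were higher was 23.2%, and 38.6% with median ratio scaling. Genes that fell were richer in GC (median 56.3%) than genes that rose (45.1%), with the median of all genes between them. After adjustment of the ratios for GC content and length 51 genes rose and 66 fell, so that 43.6% of calls were higher. Counts after this adjustment stand beside the main gene groups. The direction of each gene is read from all 4 libraries and does not depend on the pooling.

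**Figure D1:**
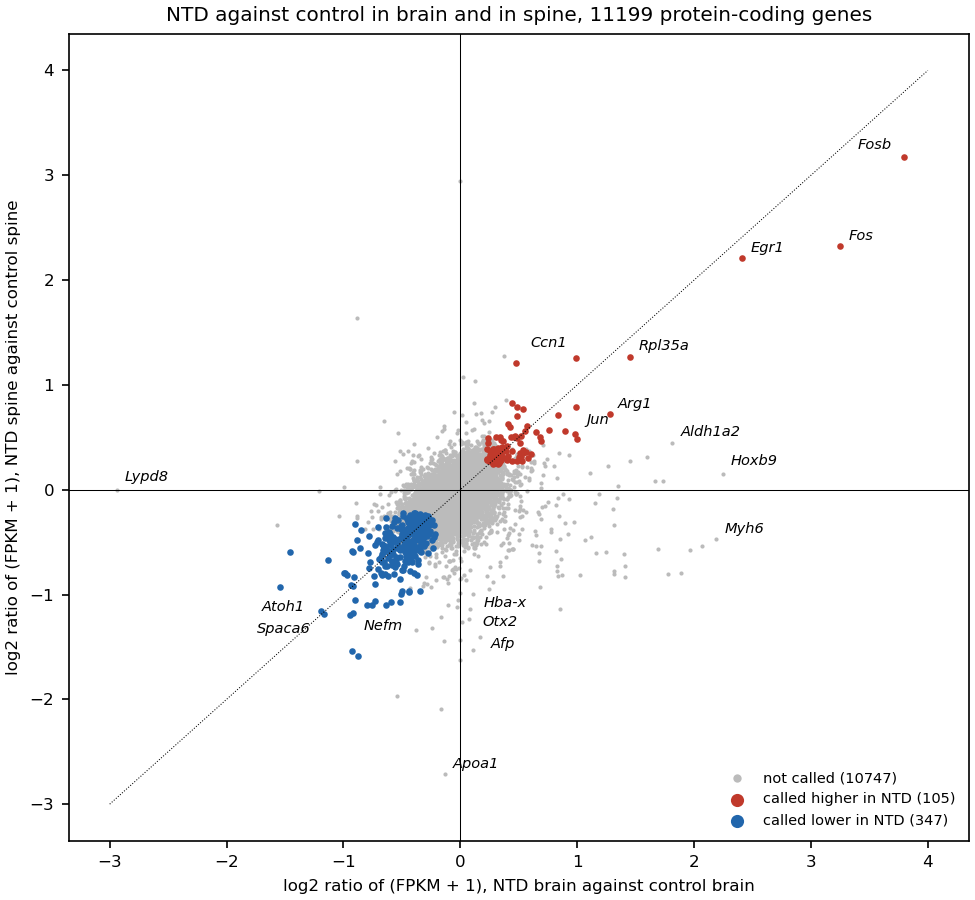
Each point is 1 of the 11199 genes, with the log2 ratio of (FPKM + 1), NTD against control, in brain on the x axis and in spine on the y axis; red and blue points are the 105 genes that rose and the 347 that fell, and the dotted line marks equal ratios. Fosb, Fos and Egr1 lie far up near that line, while Hoxb9, Aldh1a2 and Myh6 lie far to the right and Apoa1, Afp and Otx2 low near 0 in brain.

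Immediate early genes encode transcription factors and signalling regulators that cells switch on rapidly and without new protein synthesis. Of the 24 measured members 8 rose and 0 fell, 16 were higher in both tissues, and the median was 0.20. After the adjustment for GC content and length 8 passed, with Srf, the serum response factor, in place of Atf3. Promoters of 3 of them are shown because their ratios were among the highest in the table. They are the 250 bases before the RefSeq start (GRCm38.p6) of Fosb (chr7:19310046-19310295, minus strand), Fos (chr12:85473640-85473889, plus strand) and Ccn1 (chr3:145649986-145650235, minus strand), 5′ to 3′, with the core letters of the cAMP response element, TGACG on either strand, in capitals.
Fosb: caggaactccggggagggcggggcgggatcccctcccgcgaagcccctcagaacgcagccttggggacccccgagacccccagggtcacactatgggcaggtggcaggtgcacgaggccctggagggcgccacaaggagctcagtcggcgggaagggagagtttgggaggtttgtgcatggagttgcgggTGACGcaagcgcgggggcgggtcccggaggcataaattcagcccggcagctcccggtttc
Fos: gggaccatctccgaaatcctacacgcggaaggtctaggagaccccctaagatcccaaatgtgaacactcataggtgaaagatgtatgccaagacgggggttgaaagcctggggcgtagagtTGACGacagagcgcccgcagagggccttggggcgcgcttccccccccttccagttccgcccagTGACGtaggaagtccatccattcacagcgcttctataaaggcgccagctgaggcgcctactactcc
Ccn1: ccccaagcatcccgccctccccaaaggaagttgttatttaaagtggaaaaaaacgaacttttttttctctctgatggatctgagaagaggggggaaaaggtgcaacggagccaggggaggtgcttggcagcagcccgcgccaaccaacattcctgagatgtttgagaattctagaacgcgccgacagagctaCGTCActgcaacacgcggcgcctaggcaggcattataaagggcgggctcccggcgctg
These letters were found in 6 of the 7 risen members with a promoter sequence (Atf3, Ccn1, Dusp1, Fos, Fosb and Junb) and in 12 of the 20 measured members with one. Of all risen genes with a promoter sequence 29 of 76 held them, and of all tested genes with one 28.3% of 8864. The CArG box, the element of serum response factor, was searched as well. It was found in 0 of the 7 risen members and in 2 of the 20 measured members (Srf and Zfp36), against 1.18% of tested genes with a promoter sequence. Elements outside the 250 bases were not searched, and a match describes the letters only.

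The AP-1 subunits Fosb and Fos led the list. Other AP-1 genes on it, Jund, Fosl1 and Fosl2, were not among the members that rose. Gene coordinates here and below are from GENCODE on mm10, whose gene starts can differ from those of RefSeq. Fosb (ENSMUSG00000003545, chromosome 7, 19302696 to 19310051), which encodes a FOS family subunit of the AP-1 transcription factor, was at 0.0379 FPKM in control and 13.4 in NTD brain, and 0.522 in control and 12.7 in NTD spine, which in control brain stands for 4 reads. Fos (ENSMUSG00000021250, chromosome 12, 85473890 to 85477273), the founding member of that family, was at 0.302 FPKM in control and 11.4 in NTD brain, and 1.67 in control and 12.4 in NTD spine. Both NTD libraries were far above both controls for each gene, and the tissues ended at nearly the same level from different starting points. The mean log2 ratio was 3.48 ± 0.31 for Fosb (limma adjusted p = 0.000442) and 2.79 ± 0.46 for Fos (adjusted p = 0.00317). Jun (ENSMUSG00000052684, chromosome 4, 95049034 to 95052222), the partner that FOS proteins bind, was at 11.6 FPKM in control and 24.0 in NTD brain, and 15.2 in control and 27.0 in NTD spine, a mean log2 ratio of 0.89 ± 0.10 (adjusted p = 0.00571). Its relative Junb was much lower, at 3.34 FPKM in control and 4.91 in NTD brain, and 3.58 in control and 7.14 in NTD spine, and rose by 0.64 ± 0.19 (adjusted p = 0.0381). The lowest NTD value lay above the highest control value for all 4 genes. The share of all tested genes whose NTD and control libraries separate in this way was not counted. Such separation, here and below, is therefore a description only.

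Other members of the list with separate roles rose as well. Egr1, a zinc finger transcription factor, went from 0.752 to 8.33 FPKM in brain and from 1.08 to 8.61 FPKM in spine, a mean log2 ratio of 2.31 ± 0.10 (limma adjusted p = 0.000442). Ccn1 (ENSMUSG00000028195, chromosome 3, 145646976 to 145649981), a secreted matrix protein and a target of serum response factor and YAP, went from 15.2 to 31.1 FPKM in brain and from 16.9 to 41.8 FPKM in spine (1.13 ± 0.13, adjusted p = 0.00317). Dusp1, a phosphatase that switches off MAP kinases, went from 4.98 to 8.38 FPKM in brain and from 4.32 to 6.78 FPKM in spine (0.60 ± 0.05, adjusted p = 0.0232). For these 3 genes too the NTD libraries did not overlap with the controls. Atf3, a stress-induced transcription factor, went from 2.09 to 3.47 FPKM in brain and from 2.97 to 4.17 FPKM in spine (0.46 ± 0.08, adjusted p = 0.0499), again with both NTD libraries above both controls.

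The list did not move as a whole. Ier2, a nuclear protein of the same rapid response, was at 47.8 FPKM in control and 49.9 in NTD brain, and 50.9 in control and 52.8 in NTD spine (0.06 ± 0.0047, limma adjusted p = 0.538). Myc, a growth regulator, was at 18.1 FPKM in control and 18.0 in NTD brain, and 24.3 in control and 23.6 in NTD spine (-0.03 ± 0.02, adjusted p = 0.821). Srf had a mean log2 ratio of 0.21 ± 0.05 (adjusted p = 0.0858). Ccn2, the closest relative of Ccn1, was lower in NTD brain (6.80 against 4.29 FPKM) and nearly equal in spine (3.61 against 3.56 FPKM). Btg2 and Gadd45b, growth arrest genes, were lower in both tissues at -0.35 ± 0.10 and -0.43 ± 0.11 and did not pass (adjusted p = 0.0513 and 0.076). Among the members without a call, Klf4, a zinc finger factor, had the highest ratio at 0.57 ± 0.14 (adjusted p = 0.0511).

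**Figure D2:**
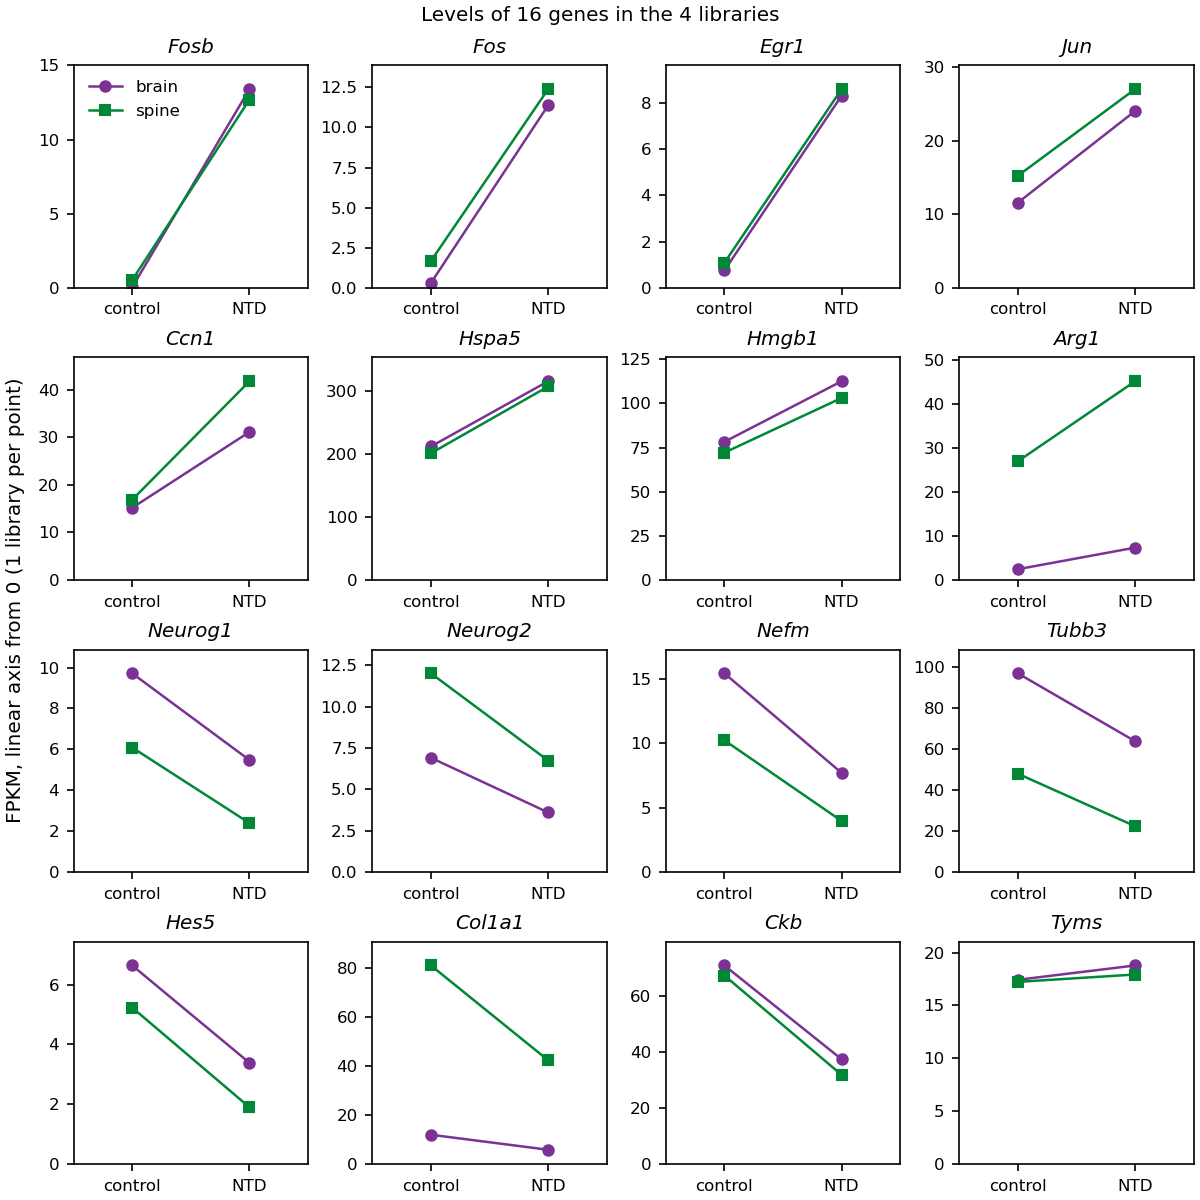
FPKM of 16 genes on linear axes from 0, with control on the left and NTD on the right of each panel; circles are brain and squares are spine, 1 library per point, and lines join the libraries of 1 tissue. In the upper 8 panels both lines rise, in the next 7 both fall, and for Tyms they stay between 17.2 and 18.8 FPKM.

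Chaperones of the endoplasmic reticulum fold secreted and membrane proteins and are transcribed more when unfolded protein builds up there. Of the 17 members measured 15 were higher in both tissues and 0 lower in both, 4 rose and 0 fell, and the median was 0.25 (0.21 in brain and 0.30 in spine) against -0.04 for all genes. After the adjustment for GC content and length 5 members rose. Hspa5 (ENSMUSG00000026864, chromosome 2, 34771970 to 34777547), the chaperone BiP that holds the stress sensors of this compartment inactive, was at 211 FPKM in control and 315 in NTD brain, and 201 in control and 307 in NTD spine. These values were 0.59 ± 0.02 on the log2 scale (limma adjusted p = 0.0166), with the 2 tissues nearly equal. The 250 bases before its start (chr2:34771840-34772089, plus strand, GRCm38.p6) are shown with the endoplasmic reticulum stress element, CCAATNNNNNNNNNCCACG on either strand, in capitals.
Hspa5: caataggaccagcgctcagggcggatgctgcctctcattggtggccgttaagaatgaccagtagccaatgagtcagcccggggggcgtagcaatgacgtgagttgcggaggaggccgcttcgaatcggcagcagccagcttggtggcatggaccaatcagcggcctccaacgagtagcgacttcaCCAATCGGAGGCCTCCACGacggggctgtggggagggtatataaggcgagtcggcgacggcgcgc
This element was found upstream of 7 of the 15 chaperone genes with a promoter sequence (Calr, Canx, Creld2, Dnajc3, Hsp90b1, Hspa5 and Pdia6) and of 0.147% of tested genes with one. Of the risen chaperones with a promoter sequence 2 of 3 held it, Hsp90b1 and Hspa5. The other carriers did not pass.

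Hsp90b1, the HSP90 of the same compartment, went from 107 to 144 FPKM in brain and from 105 to 159 FPKM in spine (0.51 ± 0.09, limma adjusted p = 0.021). Manf, a secreted stress-induced factor, went from 22.6 to 28.7 FPKM in brain and from 20.997 to 27.6 FPKM in spine (0.35 ± 0.02, adjusted p = 0.0343). Pdia4, a disulfide isomerase, went from 88.0 to 113 FPKM in brain and from 90.3 to 113 FPKM in spine (0.33 ± 0.02, adjusted p = 0.0346). The groups did not overlap for any of them. Dnajb9, a cofactor of BiP, was at 0.35 ± 0.12 and did not pass (adjusted p = 0.0642). Xbp1, the factor that activates many of these genes, was at 0.08 ± 0.0041 and Ddit3, the factor of the later death-prone phase of this response, at -0.003 ± 0.25, both uncalled (adjusted p = 0.387 and 0.993). Ddit3 was higher in NTD brain and lower in NTD spine.

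Heat shock proteins, which keep other proteins folded, had 4 of 20 members that rose and 0 that fell, with a median of 0.18. In this list 1 rose after the GC and length adjustment. Dnaja1, a cofactor of HSP70, went from 54.6 to 70.4 FPKM in brain and from 48.1 to 63.9 FPKM in spine (0.38 ± 0.02, limma adjusted p = 0.028). Hsp90aa1, the inducible cytosolic HSP90, went from 432 to 539 FPKM in brain and from 393 to 519 FPKM in spine (0.36 ± 0.04, adjusted p = 0.0445). Both were above both controls in each NTD library. The abundant Hspa8 was at 0.29 ± 0.0097 and missed the threshold (adjusted p = 0.0609).

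Targets of ATF4, the transcription factor of the integrated stress response, which amino acid shortage and other stresses engage, were split. Of 36 measured members 6 rose, 0 fell, 13 were higher in both tissues and 12 lower in both, and the median was -0.00304. The members that rose were Ppp1r15a, Cth, Eprs, Asns, Tars and Atf3. Ppp1r15a, which restores translation after this response, went from 6.44 to 9.96 FPKM in brain and from 7.89 to 10.4 FPKM in spine (0.46 ± 0.10, limma adjusted p = 0.0373). Asns, asparagine synthetase, went from 23.7 to 29.3 FPKM in brain and from 24.7 to 30.5 FPKM in spine (0.29 ± 0.0047, adjusted p = 0.0425). Eprs and Tars encode enzymes that charge transfer RNA, and their mean log2 ratios were 0.31 and 0.29. Trib3, a sensitive target in many cell types, was lower in NTD brain and higher in NTD spine (-0.41 and 0.11), and after the GC and length adjustment 1 member rose.

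Genes of ribosomal RNA processing, which act in the nucleolus, rose in 6 of 28 members and fell in 0, with 20 higher in both tissues and a median of 0.20. In this list 1 passed after the GC and length adjustment. Nop58, a core protein of the box C/D particles that methylate ribosomal RNA, went from 26.3 to 35.1 FPKM in brain and from 25.1 to 31.7 FPKM in spine (0.37 ± 0.04, limma adjusted p = 0.0331). Dkc1, the pseudouridine synthase dyskerin, went from 52.5 to 63.2 FPKM in brain and from 48.9 to 59.4 FPKM in spine (0.27 ± 0.0055, adjusted p = 0.0451). Wdr75, Gnl3, Wdr43 and Utp4 made up the rest at mean log2 ratios of 0.37, 0.35, 0.30 and 0.27. Tex10, a protein of large ribosomal subunit assembly named among the genes of smallest p, went from 19.0 to 26.5 FPKM in brain and from 18.9 to 27.2 FPKM in spine (0.48 ± 0.02, adjusted p = 0.0209), with the tissues again nearly equal.

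Of 27 measured genes of folate and single-carbon metabolism, the treated pathway, 1 rose and 0 fell, with a median of 0.00328. Over all genes tested 0.938% rose and 3.1% fell. At an unadjusted limma p under 0.05, 7 of the 27 were higher and 0 lower, against 895 and 1999 of all 11199 genes. Tyms, thymidylate synthase, was at 17.4 FPKM in control and 18.8 in NTD brain, and 17.2 in control and 17.9 in NTD spine (0.08 ± 0.02, limma adjusted p = 0.446). Each NTD library was slightly above its own control, a difference too small to be detectable with these libraries. Mthfd1, an enzyme that interconverts the carbon units, was at 35.1 FPKM in control and 39.6 in NTD brain, and 35.3 in control and 39.8 in NTD spine and had nearly the same ratio in both tissues (0.17, adjusted p = 0.112). The member that rose was Cth, cystathionine gamma-lyase of the transsulfuration route, from 7.08 to 9.29 FPKM in brain and from 6.94 to 9.15 FPKM in spine (0.35 ± 0.0027, adjusted p = 0.0474), which is also an ATF4 target and did not pass after the GC and length adjustment. Folr1, a folate receptor, had 1.67 and 1.77 FPKM in control and NTD brain and 1.77 and 0.524 FPKM in control and NTD spine, so its tissues parted (-0.40 ± 0.46, adjusted p = 0.261).

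Nucleotide synthesis showed small ratios of mostly 1 direction: 17 of 31 members were higher in both tissues and 4 lower in both. By limma 1 rose and 0 fell (12 higher and 1 lower at an unadjusted p under 0.05), with a median of 0.08. Atic, which catalyses the last steps of purine synthesis with a folate cofactor, went from 28.2 to 36.2 FPKM in brain and from 27.3 to 33.5 FPKM in spine (0.31 ± 0.03, limma adjusted p = 0.0389). Gmps and Ppat of the same route were at 0.26 ± 0.03 and 0.23 ± 0.02 and did not pass (adjusted p = 0.0532 and 0.0593). The ribonucleotide reductase subunit Rrm1 was at 0.20 ± 0.03 (adjusted p = 0.0806).

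Targets of p53, the factor that DNA damage stabilises, gave 0 calls by limma among 26 measured members (0 higher and 5 lower at an unadjusted p under 0.05), with a median of -0.05. Cdkn1a, the inhibitor of the cell cycle that p53 induces most widely, was at 1.65 FPKM in control and 1.62 in NTD brain, and 2.98 in control and 2.44 in NTD spine (-0.11 ± 0.10, adjusted p = 0.544). Bbc3, a p53 target that promotes apoptosis, was at -0.24 ± 0.0058 (adjusted p = 0.128) and Btg2, which this list shares with the immediate early list, lay furthest from 0 among the 26. Neither Cdkn1a nor Bbc3 was higher in an NTD library than in its control.

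Neuronal genes were lower in both NTD tissues. Proneural factors, the basic helix-loop-helix proteins that commit progenitors to become neurons, were lower in both tissues in 9 of 9 members, and 6 of them fell with a median of -0.70. Neurog2 (ENSMUSG00000027967, chromosome 3, 127633135 to 127635631), a factor of motor and sensory neurons, was at 6.90 FPKM in control and 3.60 in NTD brain, and 12.004 in control and 6.73 in NTD spine (-0.77 ± 0.02, limma adjusted p = 0.0124). Both NTD libraries lay below both controls.

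Neurog1, the close relative of Neurog2, went from 9.71 to 5.47 FPKM in brain and from 6.09 to 2.39 FPKM in spine (-0.89 ± 0.17, limma adjusted p = 0.0194). Neurod1, which acts later in the same cascade, went from 9.64 to 5.16 FPKM in brain and from 3.38 to 1.88 FPKM in spine (-0.70 ± 0.09, adjusted p = 0.0224). Olig3, a factor of dorsal progenitors, fell by less (-0.51 ± 0.10, adjusted p = 0.0343). The largest ratio was that of Atoh1, the factor of the most dorsal interneurons, which lies under the 5 FPKM set for naming and was chosen after its values were seen: it went from 2.54 to 0.544 FPKM in brain and from 1.48 to 0.114 FPKM in spine, which in NTD spine stands for 4 reads, a mean log2 ratio of -1.17 ± 0.02 (adjusted p = 0.0124). Olig2, a factor of the motor neuron domain, was at -0.13 ± 0.10 and did not pass (adjusted p = 0.391), and after the GC and length adjustment 5 of the 9 fell.

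Genes of early neurons fell in 16 of 28 measured members and rose in 0, 26 were lower in both tissues, and the median was -0.53 (-0.43 in brain and -0.55 in spine). After the GC and length adjustment 8 fell. Fewer neurons and less RNA per neuron cannot be told apart in bulk tissue. Nefm, the middle neurofilament subunit, was at 15.5 FPKM in control and 7.71 in NTD brain, and 10.2 in control and 3.97 in NTD spine (-1.05 ± 0.13, limma adjusted p = 0.00571). Tubb3, the tubulin of neurons, was at 96.9 FPKM in control and 63.8 in NTD brain, and 48.0 in control and 22.3 in NTD spine (-0.83 ± 0.24, adjusted p = 0.021). Both were lower in NTD within each tissue, with a larger fall in spine. Nefl and Ina, subunits of the same filaments, were at -0.73 ± 0.02 and -0.87 ± 0.23, and Nhlh1 and Nhlh2, transcription factors of newly born neurons, at -0.93 ± 0.17 and -0.82 ± 0.09.

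The other members that fell were Crmp1, Elavl4, Tagln3, Elavl3, Dcx, Mllt11, Stmn3, Insm1, Stmn2 and Cntn2, with mean log2 ratios between -0.75 for Cntn2, an adhesion protein of growing axons, and -0.33 for Crmp1, a cytoskeletal protein of growth cones. Not every neuronal gene was lower. Isl1, a factor of motor and sensory neurons, was at 5.50 FPKM in control and 5.34 in NTD brain, and 7.78 in control and 8.40 in NTD spine (0.03 ± 0.07, limma adjusted p = 0.84), and its relative Isl2 at -0.44 ± 0.03 (adjusted p = 0.0551). Ebf2 was at -0.06 ± 0.08 (adjusted p = 0.754). Gap43, a membrane protein of growing axons, was lower in both tissues at -0.27 ± 0.05 and just missed the threshold (adjusted p = 0.0511). Sst, which encodes the neuropeptide somatostatin and is on none of the lists, went from 17.1 to 8.25 FPKM in brain and from 5.46 to 2.67 FPKM in spine (-0.89 ± 0.08, adjusted p = 0.00862).

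Neural progenitors line the inner side of the tube. Of 20 measured progenitor genes 4 fell, 0 rose and 15 were lower in both tissues, with a median of -0.22. In this list 2 fell after the GC and length adjustment. Sox2, which marks all neural progenitors, was at 80.6 FPKM in control and 72.2 in NTD brain, and 45.8 in control and 37.5 in NTD spine (-0.22 ± 0.06, limma adjusted p = 0.0765), and its relative Sox3 fell by 0.31 on the log2 scale (adjusted p = 0.0411). Fabp7, a fatty acid binding protein of radial glia, went from 36.2 to 27.0 FPKM in brain and from 14.3 to 9.73 FPKM in spine (-0.46 ± 0.05, adjusted p = 0.0232). Dbx1, which patterns the middle of the tube, went from 16.3 to 11.2 FPKM in brain and from 9.58 to 7.14 FPKM in spine (-0.44 ± 0.06, adjusted p = 0.0339). The summed FPKM of the 5 neural markers Sox2, Sox1, Pax6, Nes and Sox3 was 209.8 in control and 177 in NTD brain and 129.8 and 112 in control and NTD spine. For the 5 neuron markers Tubb3, Nefm, Elavl3, Stmn2 and Dcx it was 128 and 81.1 in brain and 66.6 and 30.7 in spine, in the same order. The difference between those sums was not tested.

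The Notch pathway keeps progenitors from differentiating: proneural factors raise the ligand Dll1, which activates Notch receptors in the neighbouring cell, and the receptor fragment with RBPJ switches on Hes genes that repress proneural factors. Of 29 measured members 5 fell and 0 rose, 17 were lower in both tissues and 6 higher in both, and the median was -0.14. The promoter of Hes5 is shown because this target fell most in the list: 250 bases before its start (chr4:154960673-154960922, plus strand, GRCm38.p6), with the RBPJ letters GTGGGAA on either strand in capitals.
Hes5: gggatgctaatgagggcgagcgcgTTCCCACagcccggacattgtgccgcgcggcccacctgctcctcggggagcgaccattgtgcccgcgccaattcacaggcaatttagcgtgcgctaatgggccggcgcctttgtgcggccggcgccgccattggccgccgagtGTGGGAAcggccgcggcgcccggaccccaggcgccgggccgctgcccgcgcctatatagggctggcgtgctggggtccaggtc
The letters occur 2 times there, starting 226 and 83 bases before the gene's start, and were found in 3 of the 21 measured members with a promoter sequence (Hes5, Hey2 and Lfng) and in 5.37% of tested genes with one.

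The ligands and receptors did not pass. Dll1 was at 15.6 FPKM in control and 12.6 in NTD brain, and 17.4 in control and 17.4 in NTD spine (-0.14 ± 0.14, limma adjusted p = 0.3), Dll3, an inhibitory ligand, at -0.23 ± 0.09 (adjusted p = 0.138), Jag1, a ligand, at 0.19 ± 0.01 (adjusted p = 0.116) and the receptor Notch1 at 0.02 ± 0.11 (adjusted p = 0.903). Of the modifiers, Lfng and Mfng, which add sugars to the receptors, fell by 0.39 and 0.41 on the log2 scale (adjusted p = 0.0317 and 0.0411). Dtx4, a ubiquitin ligase of the Deltex family, went from 43.7 to 31.5 FPKM in brain and from 28.7 to 21.2 FPKM in spine (-0.44 ± 0.02, adjusted p = 0.021). Among the targets, Hes5 (ENSMUSG00000048001, chromosome 4, 154960923 to 154962371) was at 6.64 FPKM in control and 3.39 in NTD brain, and 5.23 in control and 1.90 in NTD spine, and both NTD libraries lay below both controls (-0.95 ± 0.15, adjusted p = 0.0166). Hes6, which unlike its relatives promotes differentiation, went from 25.4 to 19.6 FPKM in brain and from 21.7 to 13.3 FPKM in spine (-0.51 ± 0.15, adjusted p = 0.0343). Hes1 was lower in NTD brain and higher in NTD spine (-0.37 and 0.12), and after the GC and length adjustment 2 members fell.

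**Figure D3:**
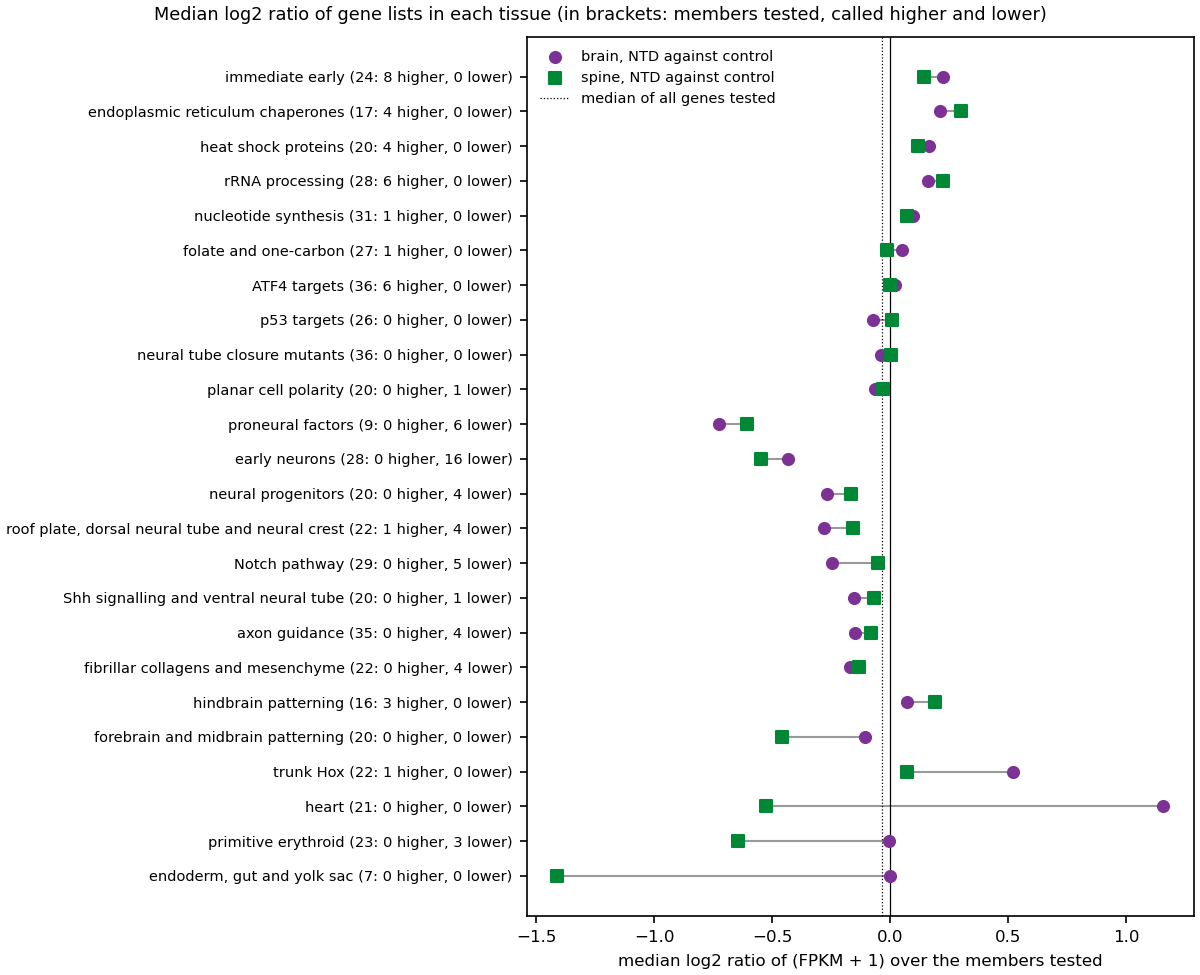
Median log2 ratio of (FPKM + 1), NTD against control, over the measured members of 24 gene lists, with circles for brain, squares for spine and a dotted line at the median of all genes tested; the numbers in brackets give the members tested and those that rose or fell. The immediate early, chaperone and ribosomal RNA lists lie right of 0 in both tissues, the proneural and early neuron lists left of 0 in both, and the heart, erythroid and endoderm lists far apart in brain and spine.

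Dorsal neural tube and neural crest genes fell in 4 of 22 measured members and rose in 1, with 15 lower in both tissues and a median of -0.26. The edges of the neural plate, which fuse at closure, become this dorsal part. Msx3, a homeobox gene of the dorsal tube, went from 13.4 to 8.56 FPKM in brain and from 12.6 to 8.74 FPKM in spine (-0.53 ± 0.05, limma adjusted p = 0.0224). Msx1 went from 21.02 to 13.2 FPKM in brain and from 21.1 to 17.4 FPKM in spine (-0.45 ± 0.18, adjusted p = 0.0478). Zic1, a zinc finger gene of the dorsal tube and head, had a mean log2 ratio of -0.33 in which the tissues were nearly equal (adjusted p = 0.0375), and Zic4 fell by 0.54 on the log2 scale (adjusted p = 0.0445). Ets1, a factor of neural crest and endothelium, was the member that rose, from 10.5 to 13.0 FPKM in brain and from 11.7 to 15.2 FPKM in spine (0.32 ± 0.03, adjusted p = 0.0478). After the GC and length adjustment 1 member fell and 0 rose.

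Of 20 measured genes of Sonic hedgehog signalling and the ventral tube, 1 fell and 0 rose, with a median of -0.12. The median GC of this list was 57.7%, above the 56.3% of the genes that fell. The list was not recounted after the GC and length adjustment, so the part of GC content in its median was not tested. Gas1, a coreceptor for the ligand, went from 37.0 to 27.0 FPKM in brain and from 47.4 to 35.0 FPKM in spine (-0.44 ± 0.0081, limma adjusted p = 0.021). Shh itself was lower in both tissues, more so in brain, at -0.30 ± 0.21 and did not pass (adjusted p = 0.133), while the receptor and target Ptch1 was higher in both at 0.31 ± 0.11 (adjusted p = 0.0632).

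Planar cell polarity narrows and lengthens the neural plate before it closes, and mutants of its core genes have an open neural tube. Of 20 measured members 1 fell and 0 rose, and the median of -0.05 was close to that of all genes. Celsr2, a cadherin of this pathway, fell by 0.34 on the log2 scale (limma adjusted p = 0.0425). Vangl2, a core member, was at 21.6 FPKM in control and 16.6 in NTD brain, and 17.5 in control and 16.5 in NTD spine (-0.22 ± 0.14, adjusted p = 0.14), lower in brain and nearly equal in spine. Of 36 measured genes whose loss in mice gives an open neural tube, limma called 0 (2 higher and 0 lower at an unadjusted p under 0.05), with 6 higher in both tissues, 12 lower in both and a median of -0.04. Vcl, the adhesion protein vinculin, was highest at 0.34 ± 0.07 (adjusted p = 0.0534), and Mthfd1l, the mitochondrial enzyme of the folate pathway, followed at 0.25 ± 0.08 (adjusted p = 0.0692).

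A list of fibrillar collagens with transcription factors and receptors of mesenchyme held 22 measured members, of which 4 fell and 0 rose, with a median of -0.16. In this list 2 fell after the GC and length adjustment. Col1a1 (ENSMUSG00000001506, chromosome 11, 94936224 to 94953042), the main chain of type I collagen, was at 12.03 FPKM in control and 5.88 in NTD brain, and 81.2 in control and 42.4 in NTD spine, so that it fell by 0.92 on the log2 scale in each tissue (limma adjusted p = 0.00211) although the spine level was several times the brain level. Col1a2, the other chain of the same fibre, went from 18.9 to 12.8 FPKM in brain and from 26.8 to 19.2 FPKM in spine (-0.50 ± 0.03, adjusted p = 0.0209). Col5a1, which starts these fibres, fell by 0.35 on the log2 scale (adjusted p = 0.0389).

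Several genes of other functions stood at the ends of the ranking. Rpl35a, a protein of the large ribosomal subunit, was at 23.0 FPKM in control and 64.7 in NTD brain, and 19.9 in control and 49.5 in NTD spine (1.36 ± 0.09, limma adjusted p = 0.000583), but it has many processed pseudogenes and its reads are uncertain. Of 75 measured ribosomal protein genes 3 rose, Rpl35a included, and 0 fell, with a median of 0.01. Arg1, the arginase of the urea cycle, went from 2.44 to 7.36 FPKM in brain and from 27.0 to 45.3 FPKM in spine (1.002 ± 0.28, adjusted p = 0.021). Hmgb1, an abundant chromatin protein whose gene also has processed pseudogenes, went from 78.2 to 113 FPKM in brain and from 72.1 to 103 FPKM in spine (0.51 ± 0.0046, adjusted p = 0.0166). On the lower side, Ckb (ENSMUSG00000001270, chromosome 12, 111669361 to 111672338), the creatine kinase of brain, was at 70.9 FPKM in control and 37.4 in NTD brain, and 67.3 in control and 31.8 in NTD spine (-0.98 ± 0.08, adjusted p = 0.00211). Spaca6, a sperm membrane protein of fertilisation, was at 7.64 FPKM in control and 2.84 in NTD brain, and 7.43 in control and 2.69 in NTD spine (-1.18 ± 0.01, adjusted p = 0.00317). The groups did not overlap for Ckb or Spaca6. The labels do not say whether counting used strand, so a gene that overlaps a neighbour may hold some of its reads. Leng8 and Rsrp1 fell by 0.68 and 0.73 on the log2 scale (adjusted p = 0.00571 and 0.00628), and Ctxn1, a membrane protein of neurons, by 0.64 (adjusted p = 0.00862). Of the common reference genes, Actb was at -0.06 ± 0.03 and Gapdh at 0.27 ± 0.19, the latter 31.3 and 43.6 FPKM in control and NTD brain and 34.0 and 35.9 FPKM in control and NTD spine (adjusted p = 0.709 and 0.125).

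**Figure D4:**
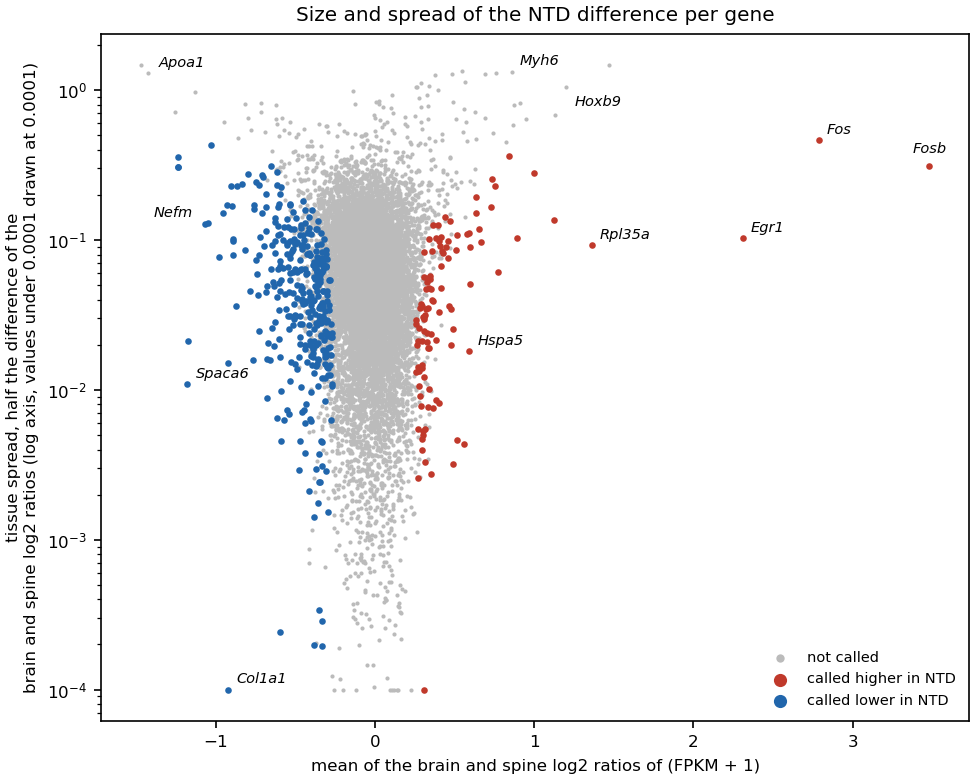
Mean of the brain and spine log2 ratios on the x axis and tissue spread on a logarithmic y axis for each of the 11199 genes, with values under 0.0001 drawn at 0.0001; red and blue points rose or fell. Called genes lie at means beyond 0.26 on either side, and Myh6, Hoxb9 and Apoa1 have means as large as called genes with a tissue spread above 1.

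A large mean did not suffice where the tissues parted, as in several markers of region and of tissue outside the neural tube. The median tissue spread was 0.055 and 90% of genes lay under 0.157. Hoxb9, a homeobox gene of the trunk, was at 0.0919 FPKM in control and 4.18 in NTD brain, and 47.5 in control and 52.9 in NTD spine; its mean of 1.199 ± 1.05 rested on brain and did not pass (limma adjusted p = 0.125). Of 22 measured trunk Hox genes 1 rose and 0 fell, 14 were higher in both tissues, and the medians were 0.52 in brain and 0.07 in spine. The member that rose was Hoxa6, from 0.0677 to 1.11 FPKM in brain and from 10.5 to 15.6 FPKM in spine (0.76 ± 0.23, adjusted p = 0.0346). Hindbrain patterning genes rose in 3 of 16 members, Hoxb3 and Hoxb4 among them. Hoxb3 went from 0.737 to 1.40 FPKM in brain and from 7.08 to 10.6 FPKM in spine (0.49 ± 0.03, adjusted p = 0.0404) and Hoxb4 from 0.968 to 1.82 FPKM in brain and from 17.9 to 22.5 FPKM in spine (0.42 ± 0.10, adjusted p = 0.0499). Their levels in NTD brain remained far below those in either spine library, and they stand beside summed spine markers of 0.123 FPKM in control brain against 7.37 in NTD brain, whose part in these results was not tested.

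Tail bud genes, of the region that extends the trunk, rose in 2 and fell in 2 of 18 measured members, with a median of -0.02. Cdx2, a regulator of posterior Hox genes, went from 0.0785 to 0.510 FPKM in brain and from 5.25 to 9.78 FPKM in spine (0.64 ± 0.15, limma adjusted p = 0.0389). T, the brachyury gene of the primitive streak and notochord, went from 0.307 to 1.10 FPKM in brain and from 7.91 to 11.7 FPKM in spine (0.60 ± 0.09, adjusted p = 0.0343). In brain these values rest on 3 reads in control and 19 in NTD for Cdx2, and on 12 and 42 for T. The summed spine markers moved the same way there (0.123 FPKM in control brain against 7.37 in NTD brain), and their part in these results was not tested. Gdf11, a signal that sets the trunk to tail transition, went from 14.8 to 10.3 FPKM in brain and from 16.4 to 13.6 FPKM in spine (-0.37 ± 0.12, adjusted p = 0.0499), and Lfng, described with the Notch genes, was the other that fell. Msgn1, of presomitic mesoderm, was at 0 FPKM in control and 0.297 in NTD brain, and 3.31 in control and 9.43 in NTD spine and did not pass (0.83 ± 0.45, adjusted p = 0.0647). After the GC and length adjustment 1 member rose and 0 fell.

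Forebrain and midbrain patterning genes had 0 calls by limma among 20 measured members (0 higher and 9 lower at an unadjusted p under 0.05), with medians of -0.10 in brain and -0.46 in spine. Otx2, which specifies these regions, was at 27.1 FPKM in control and 28.7 in NTD brain, and 2.21 in control and 0.457 in NTD spine (-0.53 ± 0.61, adjusted p = 0.225), so its level in brain differed little and the low level in spine was lower still in the NTD library. En2, of the midbrain and hindbrain boundary, was at 17.7 FPKM in control and 13.4 in NTD brain, and 1.79 in control and 0.102 in NTD spine (-0.86 ± 0.48, adjusted p = 0.0611). The same order of spine libraries was seen in the summed brain markers (9.04 and 4.08 FPKM), and their part in the result was not tested.

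Heart genes had opposite signs in 18 of 21 measured members and 0 calls by limma (2 higher and 0 lower at an unadjusted p under 0.05), with a median of 1.16 in brain and -0.52 in spine. Myh6, a myosin of contracting heart muscle, was at 1.59 FPKM in control and 10.8 in NTD brain, and 46.4 in control and 33.2 in NTD spine (0.86 ± 1.33, adjusted p = 0.335). Nppb, a natriuretic peptide, was at 0.379 FPKM in control and 3.58 in NTD brain, and 5.90 in control and 6.32 in NTD spine (0.91 ± 0.82, adjusted p = 0.142). The summed FPKM of 5 heart markers (Myh6, Myh7, Tnnt2, Actc1 and Nkx2-5) was 26.6 in control and 113 in NTD brain and 401 and 273 in control and NTD spine. Heart RNA was thus present in all 4 libraries at all 5 markers, at levels that do not follow condition.

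Globin and yolk sac genes were lower in the NTD spine library and nearly level in brain. Of 23 measured primitive erythroid genes 3 fell, 0 rose and 13 were lower in both tissues, with medians of -0.0056 in brain and -0.64 in spine. Hba-x, an embryonic globin, was at 1069 FPKM in control and 1152 in NTD brain, and 1682 in control and 843 in NTD spine (-0.44 ± 0.55, limma adjusted p = 0.267). The members that fell were Hbb-bs and Hbb-bt, adult globins with near-identical sequences whose reads are uncertain, and Add2, a protein of the red cell membrane skeleton, from 2.58 to 1.50 FPKM in brain and from 2.62 to 1.32 FPKM in spine (-0.58 ± 0.06, adjusted p = 0.0389). The 7 measured genes of endoderm, gut and yolk sac had 0 calls by limma (0 higher and 4 lower at an unadjusted p under 0.05), with a median of -1.41 in spine. Afp, alpha-fetoprotein, was at 0 FPKM in control and 0.126 in NTD brain, and 56.7 in control and 20.7 in NTD spine (-0.62 ± 0.79, adjusted p = 0.26), and the 5 markers of this group summed to 0.202 and 0.269 FPKM in the brain libraries and 117 and 35.4 FPKM in control and NTD spine, with Afp, Ttr and Apoa2 at 0 in control brain and Apoa1 and Apoa2 at 0 in NTD brain.

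Among markers of other cells, the sums for endothelium and surface ectoderm differed little between NTD and control. Summed over 5 genes, endothelial markers were at 46.8 FPKM in control and 45.8 in NTD brain, and at 57.6 in control and 61.6 in NTD spine. Surface ectoderm markers were at 99.0 and 113 FPKM in the same brain libraries and at 174 and 165.0 FPKM in the spine libraries. Macrophage markers were low, at 2.64 and 2.09 FPKM in brain and 0.862 and 0.473 FPKM in spine, and 1 of 12 genes of the macrophage list passed the filter. Somite markers were at 12.4 and 21.8 FPKM in brain and 108 and 128 FPKM in spine, higher in NTD in both tissues. With 10 lists of tissue outside the neural tube left out, a choice made after seeing the data, 11066 genes remained, of which 207 rose and 620 fell, and without genes at least 2-fold apart between the control tissues 329 rose and 975 fell.

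**Figure D5:**
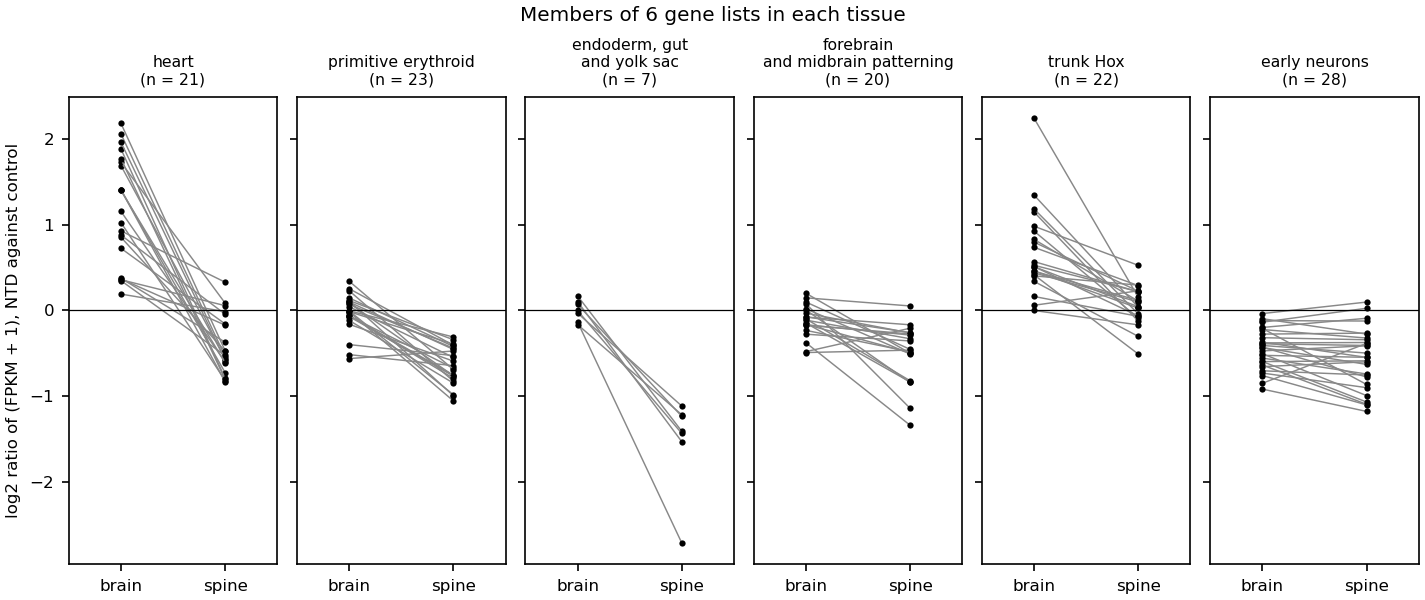
Log2 ratio of (FPKM + 1), NTD against control, in brain and in spine for each measured member of 6 gene lists; lines join the values of 1 gene. Heart and trunk Hox genes mostly slope down from values above 0 in brain, erythroid and endoderm genes mostly from values near 0, and 26 of 28 early neuron genes lie below 0 in both tissues.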

How the data were processed

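The authors deposited 1 table of FPKM for 28765 genes in 4 libraries, grouped by the sample titles. The submitters' processing notes name HISAT2 2.0.1 and the build mm10. No label names the counting program, annotation, strand setting or filters. Identifiers were matched to GENCODE M21 (28698 matched, 67 did not). FPKM times exon length stepped in whole reads for 98.6% of matched genes (tolerance 0.01 reads), which gave library totals of 16911677 reads for control and 16470311 for NTD brain, and of 16272101 for control and 16605133 for NTD spine.

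The test was limma 3.58.1 in R 4.3.3 on log2(FPKM + 1) of the 11199 protein-coding genes averaging 1 FPKM or more, with condition and tissue as terms, 1 residual degree of freedom, moderation with a trend (5.90 prior degrees of freedom) and Benjamini-Hochberg adjustment. A fold on this scale understates that of low genes. GC and length adjustment subtracted, within each tissue, the median ratio of genes in 10 by 10 cells of GC content and length. Lists (53) and members were chosen with earlier results of these data known, and lists were described by counts and medians without a test. Genes named were the 12 highest and 12 lowest in 1 direction in both tissues, the 10 of smallest p per direction, the 6 with the largest tissue difference per direction and up to 5 per list, each with at least 5 FPKM in a library, plus a fixed set (Tyms, markers and reference genes); other members named were chosen after their values were seen. Some members and markers are not reported here. Promoters are from RefSeq (GRCm38.p6). Python 3.11.15 drew the figures. Alternatives are given in the closing section.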

Additional observations from a re-analysis of the deposited data

Results flagged for a closer look

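The tissues moved in opposite directions in genes of heart muscle, which the block counts as spread. The brain log2 ratio exceeded that of spine by 2.68 for Myl2, 2.66 for Myh6, 2.60 for Actc1, 2.58 for Tnnc1 and 2.54 for Myl7, all of the contractile apparatus and all higher in NTD brain and lower in NTD spine. The medians of the heart list were 1.16 in brain and -0.52 in spine. With 1 library per tissue and condition this difference between the tissues was not tested. A ratio of 1.5-fold or more upward in brain and downward in spine was found for 20 genes, 7 of them on the heart list, and 2 genes, March5 and Pyy, named after their values were seen, were the other way round.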

How the results depend on the processing

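Pairing by replicate number was not possible because every sample title carries the number 1, so a replicate block has fewer than 2 numbers. The pairing used is that of tissue. The calls by limma (105 genes higher, 347 lower) moved as follows: 223 and 652 with a pseudocount of 5, 0 and 0 with no filter, 180 higher with a filter of 5 FPKM, 10 and 9 over all gene types, 158 higher with median ratio scaling, 303 and 789 with equal FPKM sums, 51 and 66 with GC and length adjusted. They were 398 and 894 with recovered reads scaled to library totals, 0 and 0 with no tissue block, 5 and 6 without the trend, 256 and 736 with a robust trend, 329 and 975 without genes 2-fold apart between the control tissues and, added after seeing the data, 207 and 620 without lists of other tissues. The counts at least 1.5-fold higher (8) or lower (48) in both tissues were 22 and 122 with a pseudocount of 0.1, 7 lower with a pseudocount of 5, 14 higher with no filter, 21 lower with a filter of 5 FPKM, 75 and 127 over all gene types, 15 and 31 with GC and length adjusted, 17 and 100 with recovered reads, 3 higher without the immediate early list (added after seeing the data). They were 66 and 346 at a lower fold threshold (a ratio of 5 to 4), 4 and 2 at 2-fold, 98 and 124 in the brain pair alone and 35 and 184 in the spine pair alone; the cause of these moves was not tested beyond what each setting leaves out. The share of calls that were higher, 23.2%, also moved to 45.5% without the trend and 52.6% over all gene types. Of the called genes, 40 that rose and 66 that fell passed again after the GC and length adjustment, and 105 and 251 with median ratio scaling. Of the 101 called genes named in the text, 50 passed after the GC and length adjustment and 93 with median ratio scaling. Against these, 11 passed without the trend, 6 over all gene types and 0 with no filter or no tissue block. Of the 101, 0 reversed under any setting of scaling, filter, pseudocount or moderation. Filter, gene types, tissue block and moderation leave each mean log2 ratio unchanged, so a reversal could come only from the other settings. Genes without a call that changed sign in their mean log2 ratio were Ddit3 0.0233, Myc 0.00691 (median ratio scaling), Ddit3 0.00277 (same FPKM sum), March5 -0.0293, Myh7 -0.0600 (pseudocount 5), Myc 0.0241, Nxph3 0.0682, Olig2 0.0739, Trib3 0.0335 (GC and length adjusted), Pyy -0.286 (pseudocount 0.1). With 1 library per group, leaving one out ends the fit for its tissue, which is the value of the other pair alone. The exact permutation within tissue has 4 arrangements and cannot go below p = 0.5, so it was not used for calls. Low genes rest on few reads, and ratios there cover counting error as well.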

Other observations

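Further gene groups moved by small amounts or in few members. Axon guidance genes fell in 4 of 35 measured members by limma and rose in 0, with a median of -0.12: Slit1, a repellent ligand, went from 8.55 to 5.37 FPKM in brain and from 7.74 to 5.89 FPKM in spine (-0.46 ± 0.12, adjusted p = 0.0425) and Ephb2, an ephrin receptor, from 10.9 to 7.46 FPKM in brain and from 8.31 to 6.20 FPKM in spine (-0.43 ± 0.06, adjusted p = 0.0373), with Ephb4 and Efnb3 at -0.36 ± 0.13 and -0.32 ± 0.10; 0 passed after the GC and length adjustment. Of 17 measured imprinted genes 2 fell: Cdkn1c, an inhibitor of the cell cycle, went from 35.4 to 25.2 FPKM in brain and from 60.1 to 42.7 FPKM in spine (-0.48 ± 0.0029, adjusted p = 0.0189), and Nnat was at -0.29 ± 0.03 (adjusted p = 0.0499). Id1, a target of BMP signalling, fell by 0.28 on the log2 scale (adjusted p = 0.0425), Fgfr3, an FGF receptor, fell by 0.41 (adjusted p = 0.0354) and Dusp6, a feedback inhibitor of ERK, rose by 0.31 (adjusted p = 0.0373).

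Of the genes of the cell cycle, 24 of 41 measured DNA replication genes and 24 of 43 mitosis genes were higher in both tissues. Their medians were 0.07 and 0.07, and the members that rose were Mcm4 (0.31 ± 0.08), Bub1 (0.34 ± 0.05) and Smc4 (0.26 ± 0.03). Ratios fell with GC content: the median was 0.07 in the 10% of genes lowest in GC and -0.16 in the 10% highest. Median GC was 49.2% in the replication and 46.1% in the mitosis list, each below that of all genes. Neither list was recounted after the GC and length adjustment, so the part of GC content in their medians was not tested. Among 12 measured transcripts encoded in mitochondria, mt-Co3 (-0.50 ± 0.06) and mt-Nd6 (-0.39 ± 0.07) fell and mt-Nd4l (0.44 ± 0.09) rose. The 54 measured DNA repair genes, 36 genes of DNA and histone methylation, 13 Wnt targets and 23 genes of cholesterol synthesis had 0 calls by limma, with medians of 0.06, -0.02, 0.00969 and 0.07. At an unadjusted p under 0.05, 7 of the repair, 5 of the methylation, 0 of the Wnt and 3 of the cholesterol genes were higher, and 1, 2, 3 and 3 lower.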
